A study of Coccomyxa subellipsoidea C-169 with 6 samples.

Results

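Light-harvesting antenna genes of the green microalga Coccomyxa subellipsoidea C-169 were followed between cultures supplied with 2% CO2 (CG) and cultures at 0.04% CO2 (AG), both harvested on day 4. All cultures were of the same strain, C-169, with no genetic change named, and were grown in Bold's Basal Medium under continuous light. Each group held 3 libraries, named CG 1 to CG 3 and AG 1 to AG 3, described by the study as biological replicates, and transcripts were measured by digital gene expression (DGE), which counts short reads per gene. The antenna genes are 8 of the 9409 genes in the deposited table, namely COCSUDRAFT_15915, COCSUDRAFT_21950, COCSUDRAFT_27246, COCSUDRAFT_28488, COCSUDRAFT_7387, COCSUDRAFT_66689, COCSUDRAFT_35121 and COCSUDRAFT_38026. These are their locus tags in the RefSeq annotation, and the deposited table lists the same genes as '15915', '21950', '27246', '28488', '7387', '66689', '35121' and '38026'. The first 6 were taken from the study's list of genes for photosynthetic light harvesting, and COCSUDRAFT_35121 and COCSUDRAFT_38026 from its map of photosystem II. That list holds only genes which the study had called different between CG and AG in these same libraries, so the direction and the number of calls among them are not independent evidence. All 8 were found in the table and all 8 passed the filter on low counts, which kept 8637 genes.

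Antenna proteins sit in the thylakoid membrane, bind chlorophyll a, chlorophyll b and carotenoids, and pass the energy of absorbed light to the reaction centres. In green algae and land plants they form a family encoded in the nucleus, with Lhca proteins serving photosystem I and Lhcb proteins serving photosystem II. The major Lhcb proteins assemble into trimers (LHCII), the most abundant chlorophyll-binding complex of the chloroplast. Transcripts of this family are known to respond to light and to the nutrient and carbon supply.

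Names come from the best matches in other species, taken from the study's annotation. By these, COCSUDRAFT_15915, COCSUDRAFT_21950 and COCSUDRAFT_28488 correspond to chlorophyll A/B binding protein 1, a component of LHCII in land plants, and COCSUDRAFT_27246 to the photosystem II light harvesting complex gene 2.3, likewise of LHCII. COCSUDRAFT_7387 is matched to the photosystem I light harvesting complex gene 6, whose Arabidopsis protein helps to join photosystem I to the NDH complex. COCSUDRAFT_66689 is matched to the photosystem I light harvesting complex gene 3, one of the antenna proteins held at the photosystem I core in land plants. Neither COCSUDRAFT_35121 nor COCSUDRAFT_38026 has a matched name in the sources used here beyond its place in the photosystem II map. The gene lengths behind the RPKM values, recovered from the counts and the library totals, were 633 bases for COCSUDRAFT_15915, 1118 for COCSUDRAFT_21950, 1073 for COCSUDRAFT_27246, 1165 for COCSUDRAFT_28488, 705 for COCSUDRAFT_35121, 765 for COCSUDRAFT_38026, 609 for COCSUDRAFT_7387 and 999 for COCSUDRAFT_66689.

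The counts of each library summed to between 2674507 and 3740989 in CG and between 3825993 and 4969639 in AG. Levels are given as CPM, counts scaled by TMM to a common library size, and changes as log2 fold changes of CG relative to AG with their standard errors (SE). Tests across the 8637 genes were made in edgeR by quasi-likelihood, with Benjamini-Hochberg adjustment of p-values. A gene rose or fell where its adjusted p was under 0.05. In bulk RNA a level is a share of the library, so fewer transcripts per cell and a larger total of other RNA cannot be told apart.

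In CG, 7 of the 8 antenna genes fell and 1, COCSUDRAFT_66689, rose. Over all genes tested 25.0% were called lower and 27.3% higher. The log2 fold changes of the 7 genes that fell lay between -2.86 and -1.12 with a median of -1.72, where the median of all genes tested was -0.01. The libraries of CG and AG did not overlap in any of the 8, with CG lower in 7 and higher in COCSUDRAFT_66689. Among all genes tested, 30.7% had CG wholly below AG and 31.5% wholly above it.

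**Figure D1:**
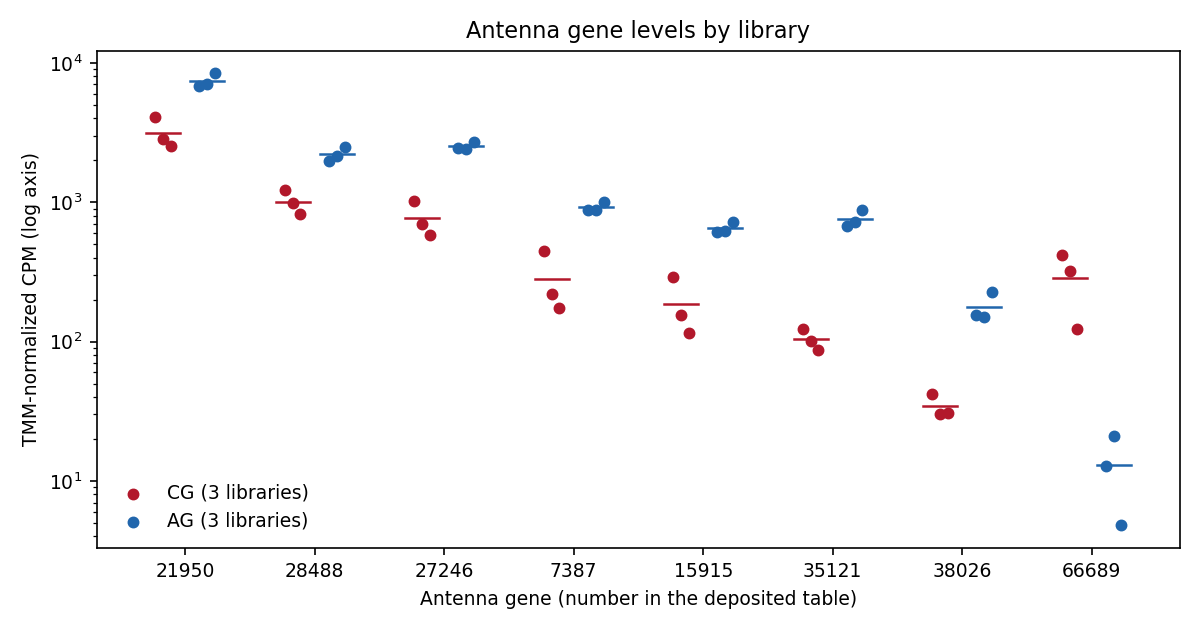
TMM-normalized CPM (log axis) of the 8 antenna genes in each library, with 3 CG and 3 AG libraries per gene and a line at each group mean. For 7 genes all CG points lie below all AG points, and for COCSUDRAFT_66689 the CG points, at 122 to 421 CPM, lie above the AG points, at 4.81 to 21.1 CPM.

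COCSUDRAFT_21950 was by far the most abundant of the 8, per kilobase as well as in CPM. It had 4073, 2851 and 2545 CPM in CG 1, CG 2 and CG 3, against 6794, 7022 and 8395 CPM in the 3 AG libraries. The groups did not overlap, and CG 1 was the CG library nearest to AG. In log2 terms the change was -1.23 (SE 0.25, edgeR adjusted p = 0.00533). Per kilobase it ranked 7th of the 9409 genes by mean RPKM in CG and 6th in AG.

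COCSUDRAFT_28488, which shares its matched protein with COCSUDRAFT_21950, had the smallest fall of the 7. Its level was 1217, 989 and 825 CPM in the CG libraries, against 1979, 2151 and 2473 CPM in the AG libraries. All CG values were below all AG values, with a log2 fold change of -1.12 (SE 0.21, edgeR adjusted p = 0.00355).

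COCSUDRAFT_15915, the third with this match, showed a larger and more variable fall. It was at 291, 156 and 115 CPM in the CG libraries, against 611, 619 and 715 CPM in the AG libraries. The highest CG library had 2.53 times the lowest, whereas the AG libraries differed by no more than 1.17 times. Its log2 fold change was -1.79 (SE 0.34, edgeR adjusted p = 0.00406).

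COCSUDRAFT_27246, the other LHCII match, had 1017, 692 and 585 CPM in the CG libraries, against 2434, 2393 and 2717 CPM in the AG libraries. This made a log2 fold change of -1.72 (SE 0.24, edgeR adjusted p = 0.00113). Per kilobase it was below COCSUDRAFT_28488 in every CG library and above it in every AG library, although the ranges of the 2 genes overlapped in CG. Mean RPKM was 733 ± 209 for COCSUDRAFT_27246 and 892 ± 167 for COCSUDRAFT_28488 in CG, against 2274 ± 141 for COCSUDRAFT_27246 and 1833 ± 205 for COCSUDRAFT_28488 in AG (SD, n = 3).

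The largest falls were those of COCSUDRAFT_35121 and COCSUDRAFT_38026, the genes from the photosystem II map that have no matched name. COCSUDRAFT_35121 was at 123, 101 and 87.6 CPM in the CG libraries, against 669, 718 and 875 CPM in the AG libraries. Every CG library was far below the lowest AG library. It fell by 2.86 on the log2 scale (SE 0.19, edgeR adjusted p = 5.66e-05), which is 7.28-fold lower in CG. Only 111 of the 8637 genes had a lower log2 fold change.

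COCSUDRAFT_38026 was, per kilobase too, the least abundant of the antenna genes that fell. It had 41.8, 30.1 and 30.8 CPM in the CG libraries, against 154, 150.1 and 225 CPM in the AG libraries. The AG 3 value stood above the other two AG values beyond counting error, with an exact Poisson 95% interval from 212 to 239 CPM in AG 3, against 142 to 167 CPM in AG 1 and 138 to 163 CPM in AG 2. Such intervals, computed from rounded counts, cover counting error only, and no molecular identifiers are described for these reads. On the log2 scale it fell by 2.37 (SE 0.22, edgeR adjusted p = 0.000209), 5.16-fold lower in CG.

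Genes COCSUDRAFT_35121 and COCSUDRAFT_38026 were also the only ones of the 8 to pass the study's stricter criteria, a change of more than 1 on the log2 scale at an adjusted p below 0.001, in edgeR over all 6 libraries. These criteria were met by 13.6% of all genes, and by 5.60% with a lower level in CG. In DESeq2 all 8 met them, beside 21.7% of all genes. In limma on log2(RPKM + 1) COCSUDRAFT_35121, COCSUDRAFT_38026 and COCSUDRAFT_66689 met them, beside 13.8% of all genes. Without CG 1, 7 did in edgeR, all but COCSUDRAFT_66689, beside 29.3% of all genes. Without AG 1, AG 2 or CG 2 only COCSUDRAFT_35121 did, beside 2.76%, 3.27% and 4.24% of all genes. With the replicate number as a block only COCSUDRAFT_66689 did, beside 3.81%. Without CG 3 the genes were COCSUDRAFT_35121 and COCSUDRAFT_66689, beside 6.43%.

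Among the genes matched to photosystem I, COCSUDRAFT_7387 fell. Its level was 447, 220.1 and 174 CPM in CG 1, CG 2 and CG 3, against 878, 882 and 1009 CPM in the 3 AG libraries. As in COCSUDRAFT_15915, the CG libraries spread over 2.57 times while the AG libraries spread over 1.15 times. A log2 fold change of -1.72 was found for this gene (SE 0.35, edgeR adjusted p = 0.00588).

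COCSUDRAFT_66689 moved the other way. Its reads numbered 1148, 901 and 471 in CG 1, CG 2 and CG 3, against 49, 80 and 23 in AG 1, AG 2 and AG 3. At equal depth these were 421, 319 and 122 CPM in CG, against 12.9, 21.1 and 4.81 CPM in AG. Even CG 3, the lowest CG library, was far above every AG library. With a log2 fold change of 4.49 (SE 0.64, edgeR adjusted p = 0.00126) its level was 22.5-fold higher in CG, and 62 of the 8637 genes had a larger log2 fold change.

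The level of COCSUDRAFT_66689 varied between replicate cultures more than that of any other of the 8 genes. The highest library had 3.45 times the lowest in CG and 4.39 times the lowest in AG, while none of the other 7 spread over more than 2.57 times in either group. Counting error did not cover the spread in AG. The exact Poisson 95% interval was 3.05 to 7.22 CPM in AG 3, below those of AG 1, which began at 9.52 CPM, and AG 2, which began at 16.8 CPM. The intervals of AG 1 and AG 2 overlapped narrowly.

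The libraries also did not line up alike for the riser and the genes that fell. In AG, COCSUDRAFT_66689 was lowest in AG 3, the library in which all 7 other genes were highest. In CG all 8 genes were highest in CG 1. For the genes that fell CG 1 was thus nearest to AG, and for COCSUDRAFT_66689 it was the library farthest from AG. Relative to the AG mean on the log2 scale, the median of the 7 genes was -1.15 in CG 1, -2.05 in CG 2 and -2.41 in the third CG library. This order was not particular to the antenna genes. The medians were -0.92, -2.02 and -2.28 for the other light-harvesting genes listed by the study. For photosystem I subunits they were -0.82, -1.78 and -2.04, and for photosystem II subunits -0.71, -1.51 and -1.83. With CG 1 left out, each of the 7 genes fell further, with log2 fold changes between -3.01 and -1.28, and COCSUDRAFT_66689 still rose, by 4.12 on the log2 scale.

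**Figure D2:**
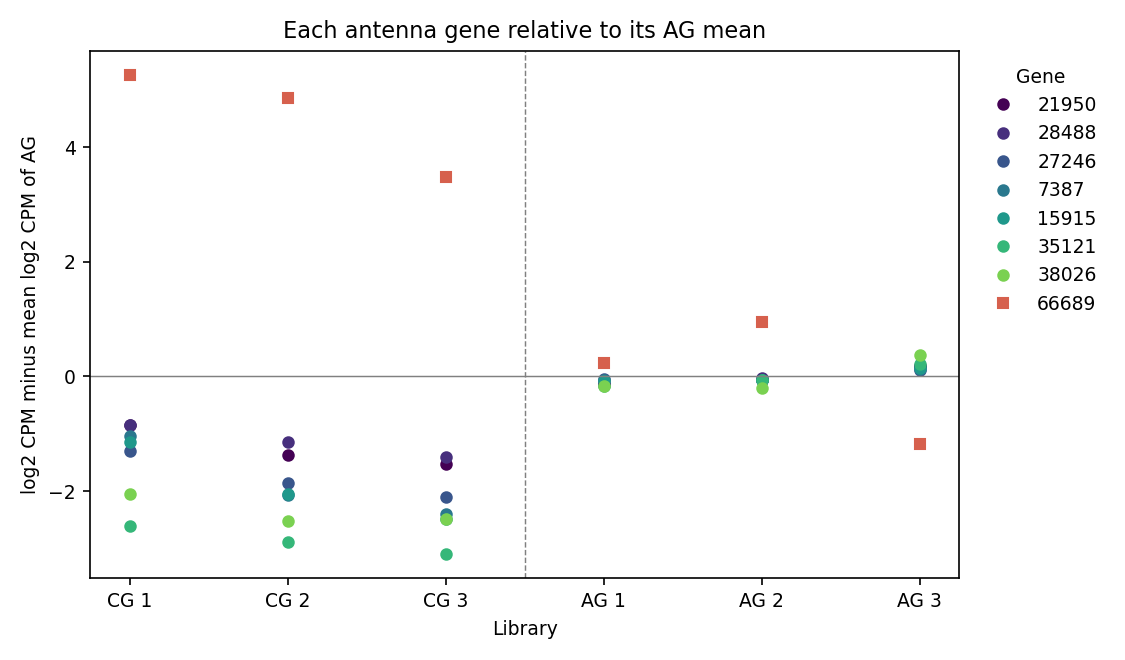
The vertical axis is the log2 CPM of each antenna gene minus its mean log2 CPM in AG and the horizontal axis the library, where squares are COCSUDRAFT_66689 and circles the 7 genes that fell. Gene by gene, the circles of CG 1 lie closer to 0 than those of CG 2 and CG 3, with medians of -1.15, -2.05 and -2.41, and the squares are highest in CG 1 and lowest in AG 3.

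Compared per kilobase, the order of the 8 genes differed between the groups mainly in COCSUDRAFT_66689 and COCSUDRAFT_35121. In CG the mean RPKM was highest for COCSUDRAFT_21950 at 2902 ± 717, followed by COCSUDRAFT_28488, COCSUDRAFT_27246, COCSUDRAFT_7387 at 472 ± 242, COCSUDRAFT_15915 at 304 ± 147, COCSUDRAFT_66689 at 296 ± 155, COCSUDRAFT_35121 at 151 ± 24.5 and COCSUDRAFT_38026 at 46.0 ± 8.43 (SD, n = 3). Apart from COCSUDRAFT_21950 and COCSUDRAFT_38026, which stood clear of all others, neighbours in this order overlapped in CG. In AG the order was COCSUDRAFT_21950 at 6424 ± 716, COCSUDRAFT_27246, COCSUDRAFT_28488, COCSUDRAFT_7387 at 1470 ± 109, COCSUDRAFT_35121 at 1038 ± 143, COCSUDRAFT_15915 at 994 ± 82.8, COCSUDRAFT_38026 at 223 ± 51.3 and COCSUDRAFT_66689 at 12.6 ± 8.15 (SD, n = 3). Only COCSUDRAFT_35121 and COCSUDRAFT_15915 overlapped there. In rank over the 9409 genes by mean RPKM, COCSUDRAFT_66689 stood at 355 in CG and at 7076 in AG, and COCSUDRAFT_35121 at 905 in CG and at 85 in AG.

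The levels of the 2 photosystem I matches lay far closer together in CG than in AG. The RPKM of COCSUDRAFT_66689 was 0.575, 0.883 and 0.429 times that of COCSUDRAFT_7387 in CG 1, CG 2 and CG 3, against 0.00894, 0.0146 and 0.00291 times in AG 1, AG 2 and AG 3. Per kilobase COCSUDRAFT_66689 thus stayed below COCSUDRAFT_7387 in every library. In CPM it did not in CG 2, where COCSUDRAFT_66689 had 319 CPM and COCSUDRAFT_7387 had 220.1 CPM. Between the photosystem II genes, COCSUDRAFT_35121 had 0.166, 0.168 and 0.176 times the RPKM of COCSUDRAFT_28488 in the CG libraries, against 0.559, 0.552 and 0.584 times in the AG libraries. This ratio hardly moved within a group, CG 1 included. Against COCSUDRAFT_15915 the ratio of COCSUDRAFT_35121 was less steady, at 0.377, 0.579 and 0.683 in CG 1, CG 2 and CG 3, against 0.983, 1.04 and 1.10 in AG 1, AG 2 and AG 3, and CG 1 was lowest. The pairs were chosen after the values had been seen, so no test is given.

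Together the 8 genes took a smaller part of the libraries in CG. Their share of all counts was 0.778%, 0.556% and 0.463% in CG 1, CG 2 and CG 3, against 1.30%, 1.38% and 1.58% in AG 1, AG 2 and AG 3. The means were 0.599 ± 0.162% in CG and 1.42 ± 0.143% in AG (SD, n = 3), a difference of -0.821 percentage points (exact permutation test, two-sided, p = 0.1, the smallest that 3 against 3 libraries can give). Since most of the 8 genes had fallen singly, the smaller share is not further evidence of a fall. Most of this share was COCSUDRAFT_21950, with 53.2 to 56.8% of the counts of the 8 genes in CG and 50.2 to 51.1% in AG. The part of COCSUDRAFT_35121 was 1.60 to 1.95% in CG and 4.95 to 5.33% in AG, and that of COCSUDRAFT_66689 was 2.72 to 5.95% in CG and 0.0293 to 0.151% in AG.

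**Figure D3:**
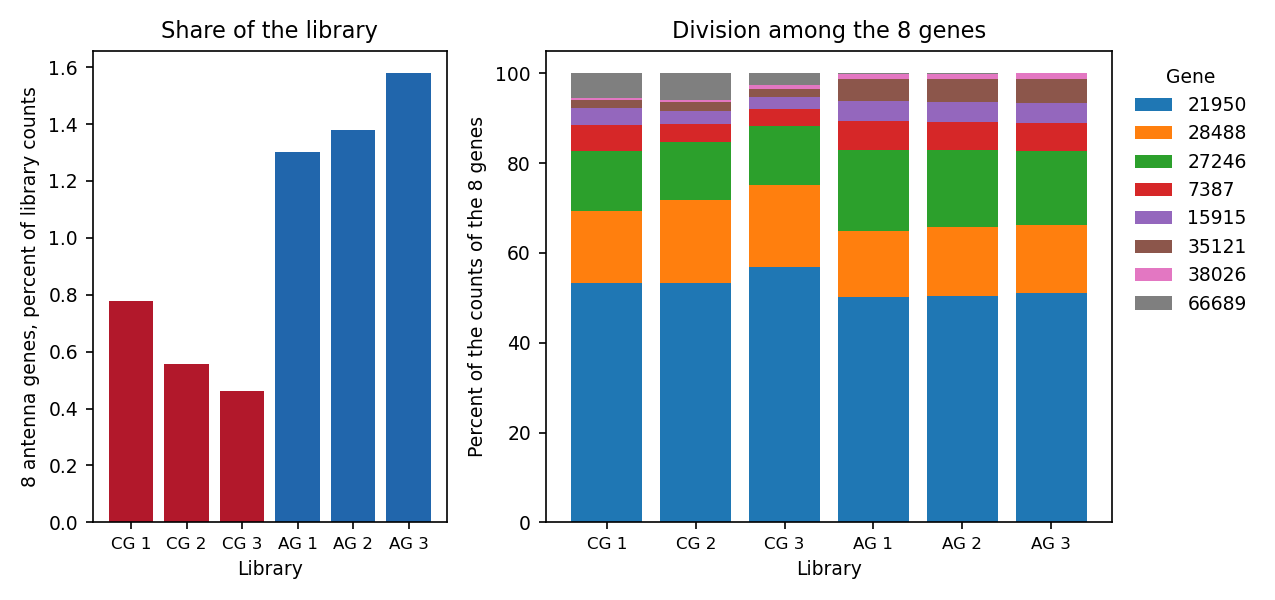
Left, counts of the 8 antenna genes as a percentage of all counts in each library; right, the percentage of those counts that each gene held. The share of the library is 0.463 to 0.778% in CG and 1.30 to 1.58% in AG, and within it the part of COCSUDRAFT_66689 is wider and that of COCSUDRAFT_35121 narrower in CG.

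The counts of 6 of the 8 genes were not whole numbers, which bears on how far these genes can be told apart. Fractions were present in all 6 libraries for COCSUDRAFT_15915, COCSUDRAFT_21950, COCSUDRAFT_27246, COCSUDRAFT_28488, COCSUDRAFT_35121 and COCSUDRAFT_38026, while COCSUDRAFT_7387 and COCSUDRAFT_66689 had whole counts throughout. The study describes counting reads that matched a single gene, which would give whole counts, and how the fractions arose is not stated in the sources used here. Among all 9409 genes, 12.8% had a count that was not whole, within a tolerance of 1e-06.

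The fractions of these 6 genes fit together. In each of them the smallest common denominator of the fractions of the 6 libraries was 420. This is the smallest number that every whole number up to 7 divides. A smallest common denominator of 420 was found for 20 genes in all, 7 of them among the 18 antenna and other light-harvesting genes followed here. The seventh was COCSUDRAFT_58975, matched to chlorophyll A/B binding protein 1. In CG 1 the counts of COCSUDRAFT_15915, COCSUDRAFT_21950 and COCSUDRAFT_27246 all ended in the fraction 41/105. In AG 1 those of COCSUDRAFT_15915 and COCSUDRAFT_35121 both ended in 4/7, and in AG 2 those of COCSUDRAFT_21950 and COCSUDRAFT_27246 both ended in 73/84. The sum over the 6 genes was not whole in any library. The sum was also taken with COCSUDRAFT_58975 and COCSUDRAFT_64185, a gene matched to the light harvesting complex of photosystem II 5. It was then 25706 in CG 1, 18101.5 in CG 2 and 21255.5 in CG 3, against 77929 in AG 1, 78286.5 in AG 2 and 117323 in AG 3. Whether reads had been divided among these genes, and how many of each gene's counts this would touch, was not tested.

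The 6 genes with fractions, summed and fitted with all other genes, had a log2 fold change of -1.38 (SE 0.26, edgeR adjusted p = 0.00386). With COCSUDRAFT_58975 and COCSUDRAFT_64185 in the sum, an alternative chosen after seeing the data, it was -1.62 (SE 0.28, edgeR adjusted p = 0.00272). Every gene in both sums had fallen singly, so the direction of the sums is not further evidence of a fall. Neither set was closed, since the first sum held a fraction in every library and the second in CG 2, CG 3 and AG 2. The summed changes, like the differences between single genes, may therefore depend on how counts were assigned. Neither COCSUDRAFT_7387 nor COCSUDRAFT_66689 enters these sums.

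No annotated gene overlaps any of the 8. Reads of both strands had been counted, so a gene overlapping on the other strand would add to them. All 8 genes were matched by their number to the RefSeq annotation of the assembly Coccomyxa subellipsoidae v2.0, as were 9372 of the 9409 genes. They lie on 6 scaffolds, with COCSUDRAFT_21950, COCSUDRAFT_27246 and COCSUDRAFT_35121 on the same one. None of the 16 genes next to them belongs to the light-harvesting list. Of these neighbours 15 could be tested, and 3 fell and 2 rose, with log2 fold changes between -1.14 and 1.05. Among all genes tested 25.0% were called lower and 27.3% higher. The gene before COCSUDRAFT_66689, numbered COCSUDRAFT_66688, had a log2 fold change of 0.05 and the one after it, COCSUDRAFT_17220, of -0.58.

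The other genes that the study listed under light harvesting all fell. All 10 passed the test and the groups did not overlap in any, with log2 fold changes between -2.16 and -1.03 and a median of -1.59. Of all genes tested, 25.0% were called lower and 30.7% had CG wholly below AG. Over all 6 libraries COCSUDRAFT_58975 had the lowest log2 fold change, at 1264 ± 375 CPM in CG and 5638 ± 728 CPM in AG (SD, n = 3), which is -2.16 on the log2 scale (SE 0.27, edgeR adjusted p = 0.000644). Genes COCSUDRAFT_61250 and COCSUDRAFT_64185 followed at -2.12 and -2.11, and COCSUDRAFT_67011 fell least at -1.03. This order depended on the libraries and on the fit. Without AG 3 COCSUDRAFT_61250 was lowest at -2.10, with COCSUDRAFT_64185 at -2.08 and COCSUDRAFT_58975 at -2.05. Without CG 1 the 10 genes lay between -3.00 and -1.37. COCSUDRAFT_61250 was then at -2.71, COCSUDRAFT_64185 at -2.69 and COCSUDRAFT_58975 at -2.42. Lowest without CG 1 was COCSUDRAFT_30169 at -3.00, against -1.93 over all libraries. COCSUDRAFT_30169 had 926 CPM in CG 1 and 273 and 162 CPM in the other CG libraries, against 1691 to 1762 CPM in AG. It was also the lowest of the 10 with the replicate block, at -2.34, and in limma, at -2.24. Of these 10 and the 8 antenna genes, 18 in all, COCSUDRAFT_66689 was the only one that rose. The 18 come from the study's list of called genes and its photosystem II map. Light-harvesting genes outside them were not examined, so this does not describe the whole family. Over all libraries COCSUDRAFT_35121 and COCSUDRAFT_38026 had lower log2 fold changes than any of the other 10, but without CG 1 COCSUDRAFT_38026, at -2.54, did not. These 10 were likewise called by the study on these libraries.

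Genes of the photosystem subunits themselves also fell, where 25.0% of all genes tested were called lower. All 6 genes of photosystem I subunits fell, with a median log2 fold change of -1.48 and a range from -1.54 to -1.27, and all 5 of photosystem II subunits fell, with a median of -1.19 and a range from -1.33 to -1.12. They include COCSUDRAFT_30990, matched to the PsbO protein that shields the water-splitting manganese cluster, at -1.24, and COCSUDRAFT_27193, matched to subunit F, which docks plastocyanin to photosystem I, at -1.47. Whether the antenna genes fell more than the subunits was not tested, and both lists were called by the study on these libraries.

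**Figure D4:**
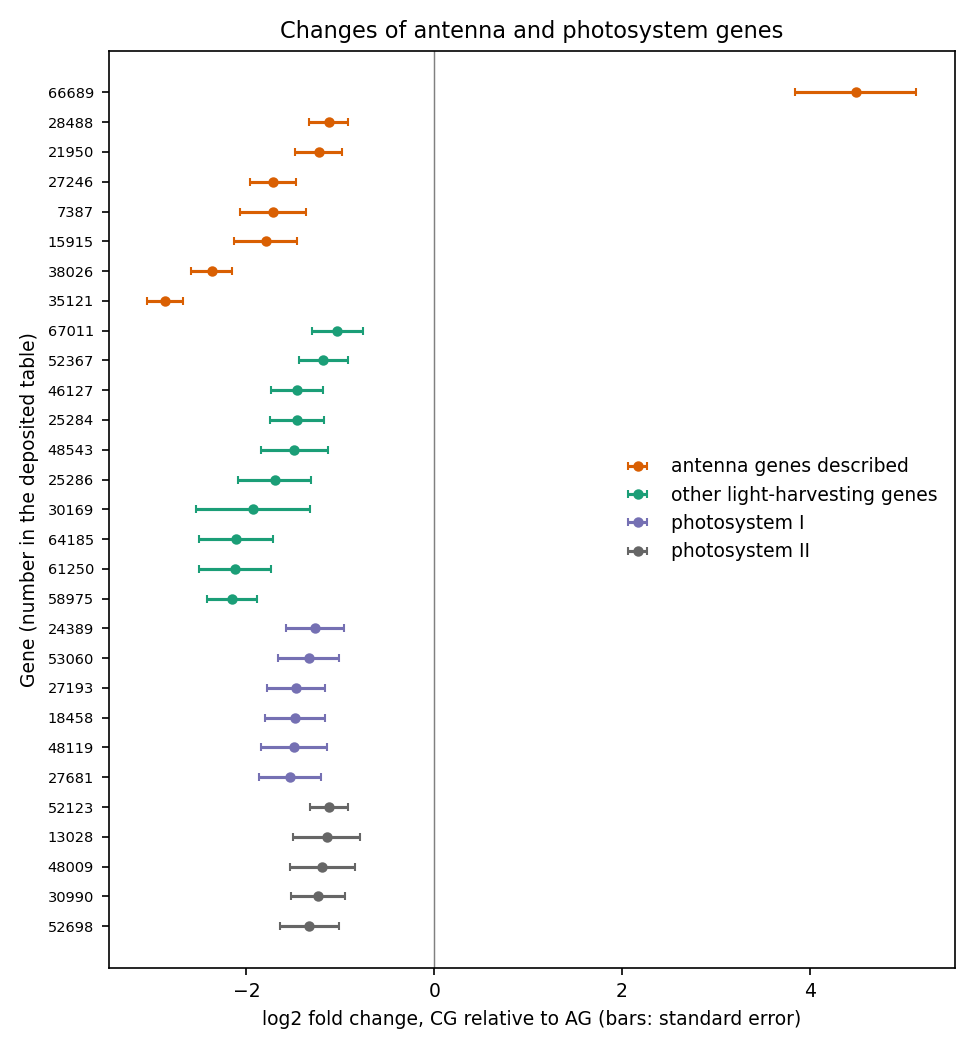
Log2 fold change of CG relative to AG, with bars of 1 standard error, for the 8 antenna genes, the 10 other light-harvesting genes, 6 photosystem I and 5 photosystem II subunit genes. All lie between -2.86 and -1.03 except COCSUDRAFT_66689 at 4.49.

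Likeness to COCSUDRAFT_66689 in log2 CPM (pseudocount of 1 CPM) over the 6 libraries was taken for all genes tested except the 8 antenna genes. The most alike were COCSUDRAFT_58812, COCSUDRAFT_60197, COCSUDRAFT_66756, COCSUDRAFT_64071 and COCSUDRAFT_64766, with Pearson's r from 0.992 to 0.998. The 6 points fall into 2 groups, so these coefficients mostly carry the difference between CG and AG and have no p-value. None of the 5 changed nearly as much: their log2 fold changes were between 0.47 and 1.63. The closest, COCSUDRAFT_58812, had 74.8, 71.1 and 60.1 CPM in the CG libraries, against 45.4, 47.6 and 40.2 CPM in the AG libraries, and like COCSUDRAFT_66689 it was lowest in AG 3 and in CG 3. For COCSUDRAFT_21950 the 5 most alike were COCSUDRAFT_64040, COCSUDRAFT_38146, COCSUDRAFT_15701, COCSUDRAFT_64367 and COCSUDRAFT_36147, with r from 0.997 to 0.998 and log2 fold changes between -4.61 and -0.89. Of the 8629 other genes, 945 had an r above 0.95 with COCSUDRAFT_21950 and 322 with COCSUDRAFT_66689. The sources used here do not pair these genes with names.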

How the data were processed

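Cultures of C-169 were sequenced by the authors as 36-nt reads, which were mapped with Bowtie (version not given in the sources used here) to the transcripts of Phytozome V10 with 1 mismatch allowed and, as described, counted where they matched a single gene. The deposited table holds expected counts per gene, part of them fractional, and the RPKM values that the authors computed from them; the authors' group means, log2 fold changes, directions and FDR values were not used. After rounding, the counts were fitted with edgeR 4.0.16 under R 4.3.3 (TMM scaling, filterByExpr, robust quasi-likelihood fits, Benjamini-Hochberg adjustment over 8637 genes), with a common biological coefficient of variation of 0.186. The standard error is the size of the log2 fold change divided by the square root of F. The fit was also run on counts simulated from the means and dispersions of these libraries, and the outcome is not given here. The share of counts was compared by an exact permutation test in scipy 1.17.1.

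The replicate numbers were not treated as pairs. Alternatives were other scalings, filters and rounding, DESeq2 1.42.0, limma 3.58.1 fitted to log2(RPKM + 1) and log2(RPKM + 0.1), a replicate block, and each library left out. The 8 genes and all lists were chosen with earlier results of these data known. Named genes are the 8, the study's light-harvesting and photosystem genes, the genes next to COCSUDRAFT_66689, and the 5 genes most like COCSUDRAFT_66689 and the 5 most like COCSUDRAFT_21950. A family list by protein similarity had been planned, but no protein sequences were at hand. Gene sequences are not shown.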

Additional observations from a re-analysis of the deposited data

How the results depend on the processing

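The directions of all 8 genes and their calls at an adjusted p under 0.05 held under each of the 17 alternatives, 136 values in all. The log2 fold change of COCSUDRAFT_66689 was between 4.07 and 5.04, and adjusted p-values reached at most 0.0321, for COCSUDRAFT_21950. The count of genes past the stricter criteria, 2 in the main analysis, was 8 in DESeq2, 3 in limma on log2(RPKM + 1) and 1 with the replicate block. It was between 1 and 7 with 1 library left out, the 7 being without CG 1. Over all genes these criteria were passed by 1171 genes in the main analysis, 2042 in DESeq2, 329 with the block and 2557 without CG 1, and the cause was not tested. The replicate block changed no call at an adjusted p under 0.05 among the 8 genes, and with it the log2 fold change of the summed genes was -1.41. Deviations of libraries with the same number correlated across genes at -0.034, 0.038 and -0.051. With 3 libraries per group this cannot decide whether libraries of the same number were paired. The sources used here do not say so either way. Of all genes, 4512 were called, against 4071 with the block. The share of counts can reach no p below 0.1. Library depth limits COCSUDRAFT_66689 most in AG, where it had 23 to 80 counts. The similarity family was not run.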
